A study of Mus musculus with 147 samples.

Results

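The cells described here are the somatic cells of the fetal mouse testis that carry a null mutation of Helq, set beside their wild-type (WT) counterparts. They are the cells sorted as BVSC-negative from male gonads between E13.5 and E15.5, chosen by the time-point, genotype and gate in their cell names. Cells with more than 2000 detected genes and between 10000 and 1000000 transcripts were kept, which left 538 of the 12692 cells of the whole series that pass the same filter. Of these, 256 were Helq-null and 282 were WT, and 560 such cells were present before the filter. The study followed male germ cells by single-cell RNA sequencing and used the Helq-null line to ask what HELQ does in them. The BVSC-negative cells of the same gonads were sequenced beside the germ cells.

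Each cell was sequenced by a modified STRT-seq, in which a barcode names the cell and a random tag, the UMI, names the molecule, so that values are counts of UMIs. BVSC stands for the pair of reporters Blimp1-mVenus and Stella-ECFP, which light up germ cells. Because the Blimp1-mVenus signal falls from E14.5, the study collected germ cells by Stella-ECFP alone from that day. WT gonads came from C57BL/6 females mated with males homozygous for the reporters. The Helq-null line was made by CRISPR/Cas9 in BVSC embryonic stem cells, and chimeras grown from targeted cells with a small deletion on both alleles were crossed with each other. The methods give no C57BL/6 cross for that line, so the genotype and the genetic background of the line cannot be told apart. The gonads were cut into proximal, central and distal parts, and the parts were pooled here. Helq-null E14.5 replicate 1 holds 15 proximal, 16 central and 0 distal cells, and with proximal and central cells only, Tescl (log2 fold change 5.27, edgeR FDR 0.0504) and Cyp11b1 (8.30, edgeR FDR 0.0504) of the genes described below were not called.

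HELQ is a DNA helicase that works at stalled replication forks and DNA crosslinks together with the FANC proteins. Germ cells are its best-known site of action, because mice without it lose many of them. The fetal testis surrounds germ cells with Sertoli cells, which form the cords and secrete anti-Müllerian hormone. Between the cords lie interstitial cells, peritubular myoid cells and fetal Leydig cells, which make androgen from cholesterol.

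The guide is shown because it gives the site that was targeted. The allele itself is the small deletion named above, which the study read by Sanger sequencing, with a Western blot for HELQ protein. Its match lies in exon 1 of Helq on the minus strand, within the coding sequence, at chr5:100798315-100798334 (mm10). The gene spans chr5:100762145-100798598. The lower-case letters are the guide of 20 bases, and the capitals are the PAM that follows it in the transcript.
sgRNA-Helq: ggagccgccgccggaaaaccGGG

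Cells of one time-point, genotype and replicate were summed to a pool, and the pool is the unit of every test, with 6 pools a genotype and 2 for each genotype and time-point. Pools held 31 to 48 cells and 5258028 to 14846785 UMIs. The study calls the replicates biological. Its list of embryos or gonads has the total of the normal cells and gives several for each replicate of these time-points, so a WT pool mixes animals. No number of animals is listed for the Helq-null pools. The p-values measure the spread between pools. Median UMIs per cell were 214190 ± 86181 in Helq-null pools and 190735 ± 49562 in WT pools (mean ± SD, n = 6 each), with a difference smaller than the spread between pools (exact permutation within time-points, two-sided p = 0.565). The cells come from 13 libraries, of which 1 holds both genotypes, and the library names carry 3 prefixes that are split unevenly over the genotypes. Prefix s0828 occurs only in Helq-null pools, E13.5 replicate 2 and E15.5 replicate 2, where genotype and prefix cannot be told apart. All WT pools but E13.5 replicate 1, which has s0307, have prefix s0505. Of 95 distinct cell barcodes, 64 recur in more than 1 library. One pool stands apart, WT E14.5 replicate 2, in which all 48 cells fell in the interstitial-like class, and results that rest on it are given with and without it.

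The cells were clustered without the marker genes, the cell-cycle genes and the genes called between the genotypes, and the clusters were then named from the markers. Of the 538 cells, 359 were interstitial-like, 91 Sertoli-like, 63 fetal Leydig-like and 25 germ cell-like. In Sertoli-like cells Amh, the anti-Müllerian hormone gene, stood at 726 counts per 1000000 UMIs (CPM) in WT and 643 CPM in Helq-null cells. The interstitial transcription factor gene Nr2f2 stood at 508 CPM in WT and 510 CPM in Helq-null interstitial-like cells. In fetal Leydig-like cells Cyp17a1, an enzyme of androgen synthesis, stood at 1514 CPM in WT and 1796 CPM in Helq-null cells. The label somatic does not hold for every cell. The 25 germ cell-like cells lay in clusters of germ cells, and in 5 of them, all Helq-null, the macrophage markers exceeded the germ cell markers. Of that marker list, C1qa and C1qb were at 0 CPM in the class. In 4 of the 25 the erythroid marker sum was over 10 times the germ cell marker sum. A further 4 interstitial-like cells, 1 of them Helq-null, had more endothelial than interstitial marker UMIs.

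Fetal Leydig-like cells made up a larger share of Helq-null than of WT pools, by a difference that did not pass after adjustment for the 4 classes. There were 2 of 40, 8 of 48, 4 of 31, 10 of 48, 10 of 42 and 13 of 47 such cells in the Helq-null pools, from E13.5 replicate 1 to E15.5 replicate 2. The WT pools in the same order held 3 of 47, 6 of 48, 3 of 47, 0 of 48, 1 of 47 and 3 of 45. The genotypes overlapped at E13.5 and were apart at E14.5 and at E15.5. At clustering resolution 0.6 they overlapped at E14.5 too, with 1 of 31 cells in Helq-null replicate 1 and 3 of 47 in WT replicate 1. The mean share was 17.8% ± 8.14 in Helq-null and 5.68% ± 4.32 in WT pools (SD, n = 6 each), a difference of 12.1 percentage points (exact permutation within time-points, two-sided p = 0.037, adjusted p = 0.148). The smallest p that the 216 assignments allow is 0.0093. The unadjusted p also missed 0.05 without WT E14.5 replicate 2 (11.1 points, exact permutation p = 0.0556), without WT E13.5 replicate 1 (11.1 points, exact permutation p = 0.0556) and without Helq-null E13.5 replicate 2 (10.2 points, exact permutation p = 0.0741). With all pools, it missed 0.05 as well at clustering resolution 0.6 and with the marker and called genes kept in the clustering.

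**Figure D1:**
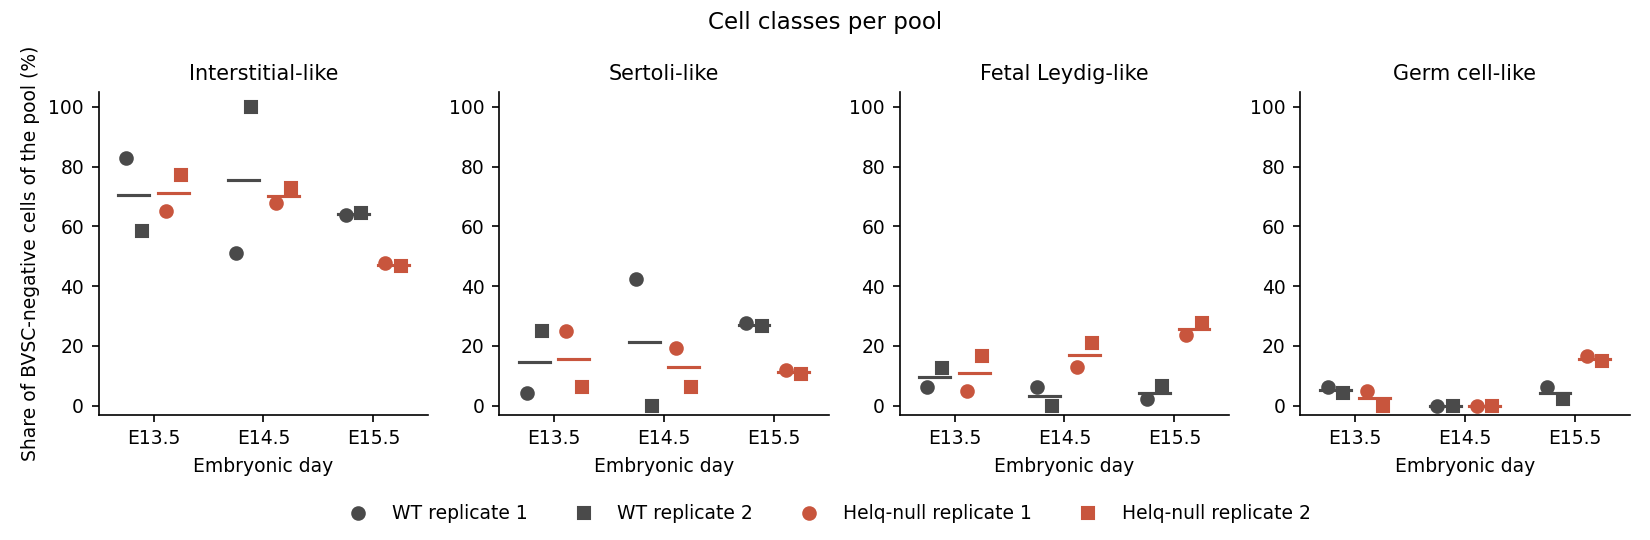
Share of each cell class among the BVSC-negative cells of a pool, in percent, by embryonic day. Circles and squares are replicates 1 and 2, bars are the mean of the 2 pools, and colours are genotypes. Fetal Leydig-like cells reach 27.7% in a Helq-null pool and at most 12.5% in a WT pool, and 1 WT pool at E14.5 is 100% interstitial-like.

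The other classes did not pass the test. Sertoli-like cells made up 13.2% ± 7.51 of Helq-null and 21.0% ± 16.0 of WT pools (SD, n = 6 each, exact permutation p = 0.426, adjusted p = 0.463). Their difference of -7.79 percentage points was -14.9 without WT E14.5 replicate 2 (exact permutation p = 0.102) and -0.697 without WT E14.5 replicate 1 (exact permutation p = 0.935). Interstitial-like cells made up 62.9% ± 12.8 and 70.1% ± 18.1 (exact permutation p = 0.463, adjusted p = 0.463, n = 6 each), and this difference changed sign without WT E14.5 replicate 2, from -7.25 to 0.909 percentage points. Germ cell-like cells made up 6.09% ± 7.77 and 3.19% ± 2.92 (exact permutation p = 0.278, adjusted p = 0.463, n = 6 each). The 2 Helq-null pools of E15.5 alone held 14 of the 16 Helq-null germ cell-like cells.

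Helq itself did not separate the genotypes. Values by pool run from E13.5 replicate 1 to E15.5 replicate 2 here and below, in CPM scaled by TMM factors. Its level was 16.8, 19.2, 24.8, 19.8, 14.8 and 5.47 CPM in the Helq-null pools. The WT pools held 14.9, 13.1, 24.6, 15.1, 15.7 and 23.3 CPM. The ranges overlap, and the lowest pool is Helq-null E15.5 replicate 2. The log2 fold change was -0.13 (SE 0.38, edgeR adjusted p = 0.993), and without that pool it was 0.11. Counts of 3′ transcript tags do not read the edited exon, so this level does not check the mutation. Of 147 tested genes within 10 Mb of Helq, 0 were called by edgeR, and 15 had an unadjusted p under 0.05, which is 10.2% beside 7.2% of all tested genes.

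Across the whole transcriptome the BVSC-negative cells of the genotypes were told apart by very few genes. Of 16247 genes tested, 3 were called at a false discovery rate (FDR) of 0.05 (0.0185% of those tested), and all 3 were higher in Helq-null cells. They are Gm10036, Tescl and Cyp11b1. Tescl and Cyp11b1 lie below the level set for naming genes, a mean log2 CPM of 4, and were named after their values were seen. Unadjusted p-values under 0.05 were found for 1169 genes, 3.55% of those tested being higher and 3.64% lower in Helq-null pools, and 50.9% of genes had a log2 fold change above 0. In 70 genes (0.431%) the 6 Helq-null pools did not overlap the 6 WT pools, and in 517 (3.18%) they did not overlap within any time-point. DESeq2 called 93 genes in the same counts, 49 higher and 44 lower. In simulated pools of the same depth and spread, edgeR called 20 of 100 genes changed 2-fold and 57 of 100 changed 4-fold, so smaller changes were largely not detectable here.

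**Figure D2:**
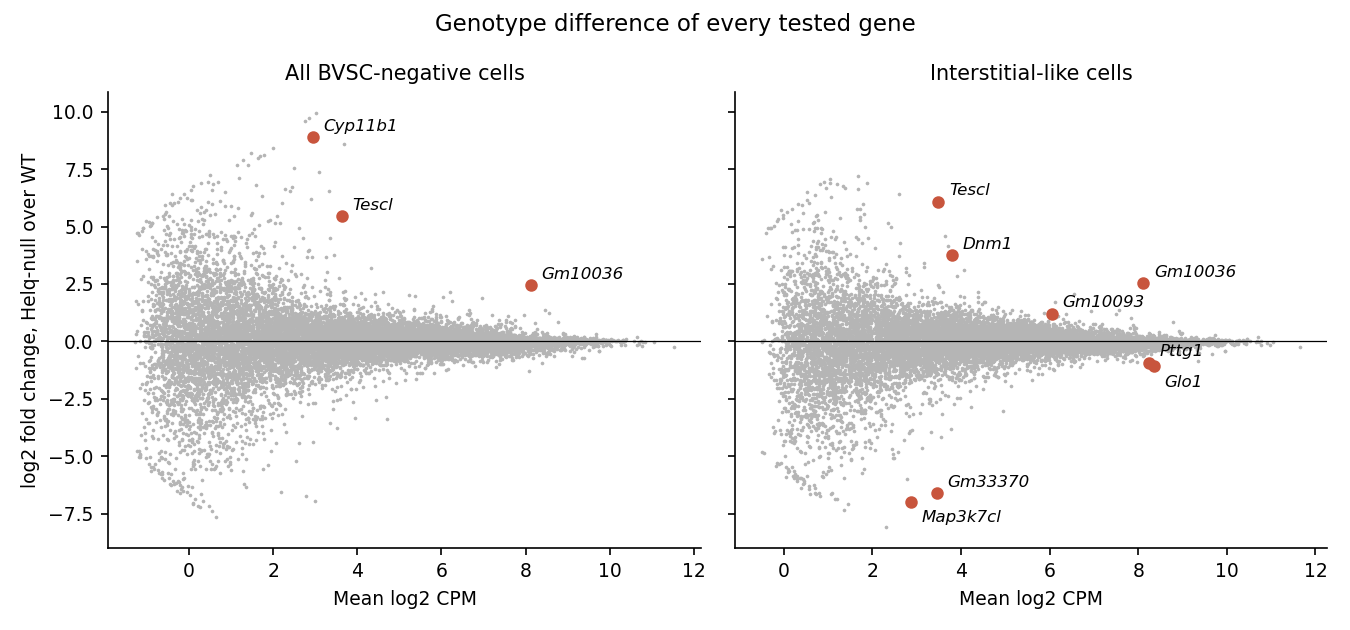
Log2 fold change of Helq-null over WT against the mean log2 CPM of each tested gene, in all BVSC-negative cells and in interstitial-like cells alone. Grey points are genes that were not called and red points are genes at an FDR under 0.05. The 3 called genes of all cells lie above 0, and the 8 of interstitial-like cells lie 4 above and 4 below.

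Gm10036 is annotated as a processed pseudogene on chromosome 18, that is, a copy of a gene without introns. Its level was 647, 467, 400, 630, 263 and 417 CPM in the Helq-null pools. WT pools had 150, 79.8, 85.3, 65.9, 61.4 and 72.1 CPM. The lowest Helq-null pool lies above the highest WT pool. The log2 fold change was 2.46 (SE 0.20, edgeR FDR 2.25e-05), and in summed counts Gm10036 had 24202 UMIs in Helq-null and 4844 in WT cells. Its transcript shares 76.6% of its words of 31 bases with Rpl11, which encodes a protein of the large ribosomal subunit, so reads of the 2 genes are hard to separate. Rpl11 had a log2 fold change of -0.10 (SE 0.20, edgeR FDR 0.979), at 743 CPM over all Helq-null and 791 CPM over all WT cells. Gm10036 was detected in 255 of 256 Helq-null and 270 of 282 WT cells.

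By class, Gm10036 stood at 462 CPM in Helq-null and 78.1 CPM in WT interstitial-like cells. In Sertoli-like cells it stood at 381 and 79.7 CPM, and in fetal Leydig-like cells at 399 and 97.2 CPM. In germ cells sorted by the reporters from the same gonads, a population that shares animals with the BVSC-negative cells, it stood at 480 and 96.7 CPM.

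Tescl (chr7:24333082-24333936, mm10) is named for its likeness to tescalcin, a calcium-binding protein. The Helq-null pools held 12.04, 20.5, 18.4, 55.4, 21.7 and 15.03 CPM. In WT the pools had 0, 0.0636, 2.83, 0.261, 0.552 and 0.613 CPM. The groups do not overlap. The log2 fold change was 5.44 (SE 0.75, edgeR FDR 0.0136). UMIs of Tescl were found in 132 of 256 Helq-null cells and in 15 of 282 WT cells. The Helq-null cells with a UMI were 80 of 161 interstitial-like, 19 of 32 Sertoli-like and 27 of 47 fetal Leydig-like cells, while WT classes held 9 of 198, 5 of 59 and 1 of 16. Median depth per cell was 200772 UMIs in Helq-null and 183310 in WT cells. The call was lost without Helq-null E14.5 replicate 2, the highest pool (log2 fold change 5.48, edgeR FDR 0.0564), and with the library prefix as a covariate (5.70, edgeR FDR 0.0508).

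**Figure D3:**
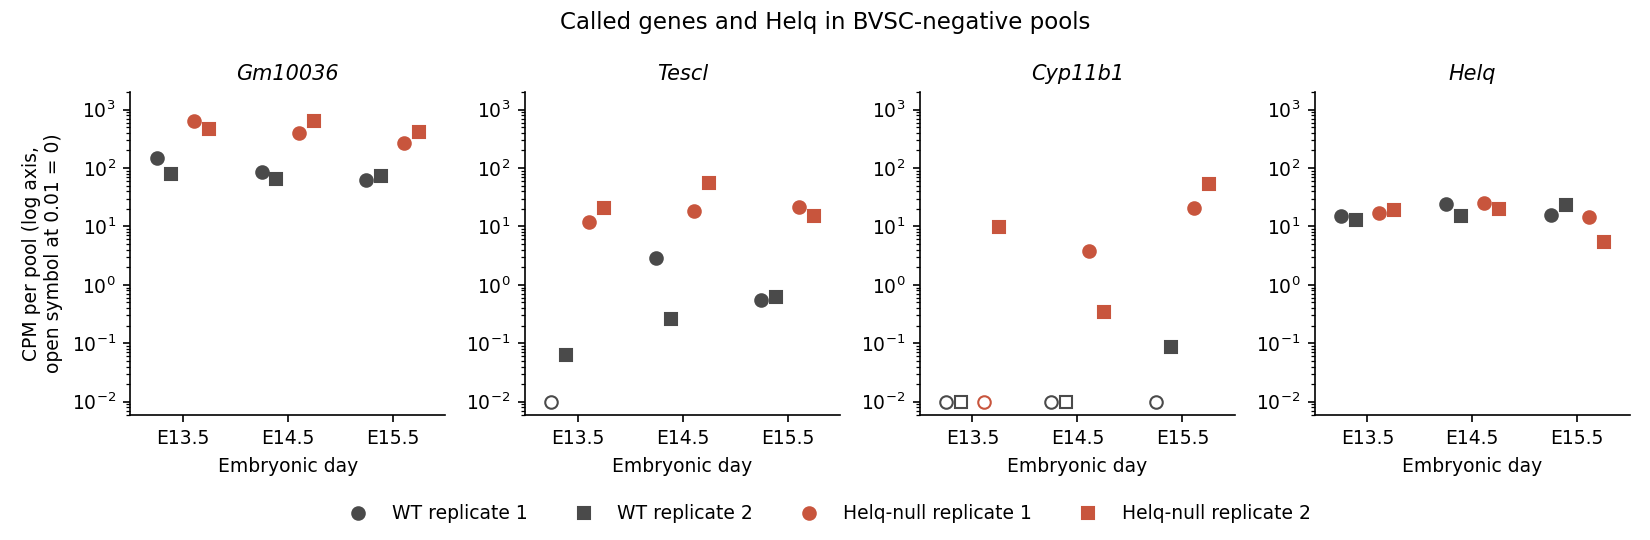
Level of the 3 called genes and of Helq in each BVSC-negative pool, in CPM on a log axis, by embryonic day. Circles and squares are replicates 1 and 2, colours are genotypes, and an open symbol is a pool with 0 UMIs. Gm10036 and Tescl do not overlap between genotypes, Cyp11b1 is at 0 in 5 of 6 WT pools, and Helq overlaps.

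Cyp11b1 (chr15:74834125-74841643, mm10) encodes steroid 11-beta-hydroxylase, an enzyme best known from the adrenal cortex that some steroid-making cells of the fetal testis also express. The Helq-null pools held 0, 9.87, 3.87, 0.345, 21.1 and 53.9 CPM. The WT pools were at 0 except for 0.0876 CPM in E15.5 replicate 2, where 3 UMIs would read as 0.273 CPM. The genotypes overlap at E13.5 and not at E14.5 or E15.5. In all, 1079 UMIs in Helq-null cells stood against 1 in WT cells, a ratio of 1149 for equal totals (95% counting interval 206 to 45418). Such intervals, here and below, cover counting error only and not the spread between cells or pools. A single Helq-null cell held up to 186 of these UMIs. The fitted log2 fold change was 8.89 (SE 1.37, edgeR FDR 0.0367), and the call was lost without Helq-null E15.5 replicate 2 (8.26, edgeR FDR 0.251), without WT E15.5 replicate 2 (9.35, edgeR FDR 0.108) and with the prefix as covariate (7.31, edgeR FDR 0.579).

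Cyp11b1 was concentrated in the fetal Leydig-like class, the class that was also larger in the Helq-null pools. Of its 1079 Helq-null UMIs, 958 lay in the 47 fetal Leydig-like cells, 30 of which had at least 1 (63.8%). None was found in the 16 WT fetal Leydig-like cells, and a limit of 3 cells of 16 allows a share of up to 18.75% of cells with a UMI. This limit covers counting error only, and the cells of a pool are not replicates of the genotype. By pool the Helq-null fetal Leydig-like cells held 0, 32.0, 22.4, 1.38, 67.0 and 169 CPM. The 2 pools of E15.5 are the highest, and in E15.5 replicate 2 all 13 such cells had a UMI. With at least 5 fetal Leydig-like cells asked of a pool, 1 WT pool remained, so no test within the class was made. A WT fetal Leydig-like cell with 15 UMIs was found among 3 such cells that had been sorted into the germ cell gate.

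Low counts of Cyp11b1 were spread over the other Helq-null cells. Of 161 Helq-null interstitial-like cells 46 had a UMI, with at most 3 in a cell, and so did 10 of 32 Sertoli-like cells, which are not steroid-making cells of this kind, at a level of 2.3 CPM. Of the 16 Helq-null germ cell-like cells 12 had a UMI (75%), with at most 10 in a cell and a level of 7.02 CPM. This class is mixed, since in 5 of these 16 cells the macrophage markers exceeded the germ cell markers. In the germ cell gate 39 of 551 Helq-null cells had a UMI (7.08%, 0.234 CPM). Median depth was 273862 UMIs in Helq-null fetal Leydig-like, 225432 in Helq-null Sertoli-like and 283988 in Helq-null germ cell-like cells. The share of fetal Leydig-like cells with a UMI lies above that of Sertoli-like and below that of germ cell-like cells, and their level of 73.3 CPM lies above that of both. The part of free RNA in the lower counts was not tested.

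Other genes of the fetal Leydig cell were measured at close levels in the fetal Leydig-like cells of both genotypes. Star, which carries cholesterol into mitochondria, stood at 841 CPM in Helq-null and 763 CPM in WT cells. Cyp11a1, which makes the first steroid from cholesterol, stood at 1639 and 1343 CPM. Hsd3b1, the next enzyme, stood at 1316 and 1233 CPM. The hormone gene Insl3 stood at 451 and 370 CPM, and Lhcgr, the receptor for luteinizing hormone, at 364 and 316 CPM. These are sums over 47 and 16 cells with no test, and the class was named from these genes, which were left out of the clustering. Cyp21a1, the adrenal 21-hydroxylase gene, was looked up after these values were seen. It stood at 68.7 CPM in Helq-null fetal Leydig-like cells and 2.44 CPM in WT cells, with UMIs in 23 of 47 and 1 of 16 cells. Mc2r, the receptor for the pituitary hormone that drives the adrenal, stood at 118 and 130 CPM. Over whole pools Cyp21a1 was not called (edgeR log2 fold change 6.20, FDR 0.66), and its highest pool was Helq-null E15.5 replicate 2 at 64.0 CPM.

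In the pooled cells, all 6 fetal Leydig markers had a positive log2 fold change, with a median of 1.20 beside 0.01 over all tested genes, and 0 of 6 were called. In such sums, fewer cells of a type and less RNA per cell cannot be told apart. The summed level of the 6 genes ran from 234 to 3083 CPM in Helq-null and from 8.86 to 1217 CPM in WT pools, which overlap. The wider list for androgen synthesis had 9 of 11 tested genes above 0, a median of 1.04, and 0 called. Those below 0 were Hsd17b3 (-0.92, SE 0.97) and Hsd17b1 (-0.85, SE 0.80), which encode 17-beta-hydroxysteroid dehydrogenases and are known from Sertoli cells of the fetal testis.

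Interstitial-like cells were the largest class and were present in all 12 pools, so the genotypes could be compared within one class. The class is mixed, since the peritubular myoid marker Acta2 stood in it at 411 CPM in Helq-null and 550 CPM in WT cells. What part its make-up has in the calls was not tested. Of 14505 genes tested, 8 were called (0.0552%), 4 higher (0.0276%) and 4 lower in Helq-null cells. The higher genes were Gm10036, Tescl, Dnm1 and Gm10093, and the lower ones Glo1, Pttg1, Map3k7cl and Gm33370. Tescl, Dnm1, Map3k7cl and Gm33370 lie below the level for naming genes and were named after their values were seen. An unadjusted p under 0.05 was found for 942 genes (6.49%). Within this class Gm10036 had a log2 fold change of 2.52 (SE 0.21, edgeR FDR 1.98e-06) and Tescl of 6.08 (SE 0.86, edgeR FDR 0.00546).

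Dnm1 (chr2:32308471-32353338, mm10) encodes dynamin 1, a GTPase of endocytosis best known from neurons. In interstitial-like cells the Helq-null pools held 17.9, 21.9, 25.1, 20.5, 21.1 and 43.8 CPM. The WT values were 1.01, 0.50, 3.10, 2.39, 4.13 and 1.10 CPM, well below every Helq-null pool. The log2 fold change was 3.76 (SE 0.59, edgeR FDR 0.0159). Over all BVSC-negative cells it was 3.00 (SE 0.54, edgeR FDR 0.0847), and Dnm1 stood at 1.58 CPM in Helq-null and 2.02 CPM in WT Sertoli-like cells. Without Helq-null E15.5 replicate 2 the interstitial value was 3.63 (edgeR FDR 0.0562).

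Glo1 (chr17:30584936-30626871, mm10) encodes glyoxalase 1, which clears methylglyoxal, a by-product of glycolysis. In interstitial-like cells the Helq-null pools held 231, 190, 219, 279, 179 and 174 CPM. WT pools had 702, 378, 409, 378, 346 and 434 CPM. Every Helq-null pool lies below every WT pool. Glo1 fell by 1.05 on the log2 scale (SE 0.17, edgeR FDR 0.0192), and over all BVSC-negative cells the value was -0.94 (SE 0.17, edgeR FDR 0.0834). Its level was 253 CPM in Helq-null and 411 CPM in WT Sertoli-like cells.

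Pttg1 (chr11:43420250-43426251, mm10) encodes securin, an inhibitor that keeps sister chromatids from being separated before anaphase. The Helq-null interstitial-like pools held 321, 188, 166, 192, 207 and 180 CPM. The WT values were 474, 397, 488, 331, 350 and 326 CPM. The groups do not overlap, with 321 CPM next to 326 CPM. Pttg1 fell by 0.92 on the log2 scale (SE 0.16, edgeR FDR 0.0386). The call was lost when any of Helq-null E14.5 replicate 1, E14.5 replicate 2, E15.5 replicate 2 or WT E14.5 replicate 1 was left out, while the value stayed between -1.05 and -0.82 without any 1 pool.

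Gm10093 (chr17:78491582-78493025, mm10) is a further processed pseudogene. The Helq-null interstitial-like pools held 87.1, 105.5, 90.3, 107, 64.7 and 98.8 CPM. Those of WT held 31.9, 40.8, 48.1, 44.1, 38.9 and 36.6 CPM, all below the Helq-null pools. The log2 fold change was 1.20 (SE 0.21, edgeR FDR 0.0386). It shares 86.1% of its words of 31 bases with Hdac1, a histone deacetylase gene, and Hdac1 had a log2 fold change of -0.51 (edgeR FDR 0.449) in these cells, so reads of the 2 genes are hard to separate. The call was lost when any of 10 pools was left out, WT E14.5 replicate 2 among them (edgeR FDR 0.0976), while the value stayed between 1.14 and 1.299.

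**Figure D4:**
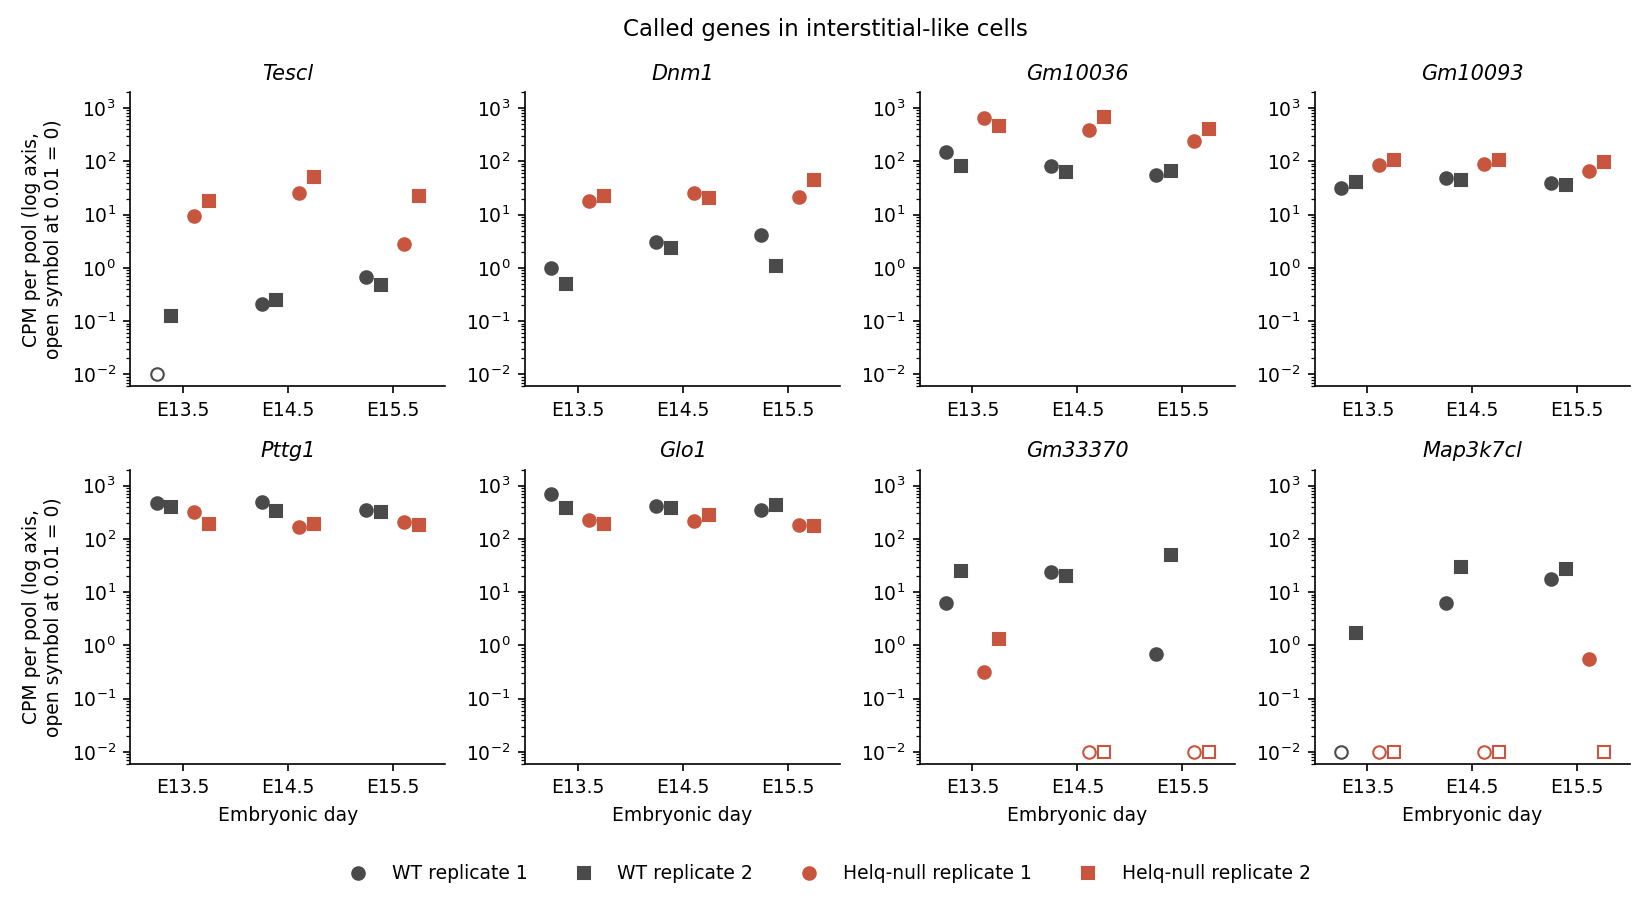
Level of the 8 genes called in interstitial-like cells, in CPM per pool on a log axis, by embryonic day. Circles and squares are replicates 1 and 2, colours are genotypes, and an open symbol is a pool with 0 UMIs. The 4 genes of the upper row are higher in every Helq-null pool than in any WT pool, Pttg1 and Glo1 are lower in every one, Gm33370 has 1 WT pool below a Helq-null pool, and Map3k7cl is at 0 in 5 of 6 Helq-null pools and 1 WT pool.

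Map3k7cl (chr16:87553330-87595336, mm10) and Gm33370 (chr5:96910341-96922175, mm10) were close to absent from Helq-null interstitial-like cells. Map3k7cl resembles the C-terminal part of the kinase MAP3K7. It had 3 UMIs in Helq-null and 552 in WT interstitial-like cells, and the WT count is 151 times higher for equal totals (95% counting interval 51.3 to 732). The WT pools held 0, 1.75, 6.40, 29.3, 17.6 and 27.0 CPM, and the 1 Helq-null pool above 0 held 0.56 CPM. In WT, 28 of 198 interstitial-like cells had a UMI, up to 100 in a cell. The fitted log2 fold change was -6.96 (SE 1.26, edgeR FDR 0.0404). The call was lost without WT E14.5 replicate 2, the highest pool (-6.45, edgeR FDR 0.0976), and without Helq-null E14.5 replicate 1, E14.5 replicate 2 or E15.5 replicate 2 or WT E15.5 replicate 2. The value ran from -8.85 to -6.45 without any 1 pool.

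Gm33370, a long intergenic non-coding RNA in the same 10 Mb around Helq, had 12 UMIs in Helq-null and 820 in WT interstitial-like cells. The ratio for equal totals was 55.9 (95% counting interval 31.8 to 109). The Helq-null pools held 0.32 and 1.33 CPM at E13.5 and 0 at E14.5 and E15.5. The WT pools held 6.28, 24.7, 24.4, 19.9, 0.69 and 49.8 CPM, and the lowest of them, E15.5 replicate 1, lies below 1 Helq-null pool of E13.5. The fitted log2 fold change was -6.59 (SE 1.20, edgeR FDR 0.0404). WT Sertoli-like cells had a UMI of Gm33370 in 23 of 59 cells, and Helq-null ones in 0 of 32. The call was lost without Helq-null E15.5 replicate 2 (edgeR FDR 0.0562) and without WT E15.5 replicate 2 (edgeR FDR 0.0822).

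The library prefix was split unevenly over the genotypes, and most of these calls did not pass with it in the fit. Prefix s0828 held only Helq-null pools, so a fit with the prefix cannot tell the 2 apart in them. With the prefix as covariate 1 of 8 calls remained, Gm10036. The values of the others kept their sign and were close to those without the prefix, at 5.92 for Tescl, 3.27 for Dnm1, 1.11 for Gm10093, -1.04 for Glo1, -0.86 for Pttg1, -5.97 for Map3k7cl and -7.32 for Gm33370 on the log2 scale. Within libraries of 1 prefix at E14.5 and E15.5, 2 Helq-null against 4 WT pools, edgeR called 5 genes, of which Gm10036 was the only 1 of the 8, and Glo1 was at -0.79, Pttg1 at -0.88 and Dnm1 at 2.97. Gm33370 was at -10.11 there (edgeR FDR 0.0999).

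Sertoli-like cells sufficed for a test in 8 pools, 4 of each genotype. Of 13193 genes tested 1 was called (0.00758%), Gm10036, with a log2 fold change of 2.32 (SE 0.34, edgeR FDR 0.00457), and the call was lost without Helq-null E13.5 replicate 1 (2.11, edgeR FDR 0.193). An unadjusted p under 0.05 was found for 710 genes (5.38%), and DESeq2 called 42. Whether the genotype difference itself varies between Sertoli-like and interstitial-like cells was tested in the 8 pools that hold both. Of 12870 genes 0 were called by edgeR, with 640 at an unadjusted p under 0.05, and the term was -0.29 (SE 0.28) for Gm10036.

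The genotype difference was not shown to change with embryonic day. By the test over the 3 time-points 0 of 16247 genes were called by edgeR, with 527 at an unadjusted p under 0.05, and DESeq2 called 2. Gm10036 had log2 fold changes of 2.28 at E13.5, 2.77 at E14.5 and 2.35 at E15.5, and passed on its own at E14.5 (edgeR FDR 0.0373, 1 gene called, 0.00615%). At E13.5 and at E15.5 edgeR called 0 genes, with 384 and 1147 at an unadjusted p under 0.05. Tescl was at 8.17, 4.54 and 4.94 and Cyp11b1 at 8.61, 7.38 and 9.28 on the same scale.

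Genes that follow DNA damage or replication stress did not separate the genotypes in these cells. In the list of HELQ partners and repair of stalled forks and crosslinks, 13 of 26 tested genes lay above 0 and 13 below, the median log2 fold change was -0.05, and 0 were called. Rpa1, which encodes a protein that coats single-stranded DNA, was at 0.31 (SE 0.18). Among targets of p53, 11 of 20 lay above 0, with a median of 0.05 and 0 called. Cdkn1a, the gene of the cell cycle inhibitor p21, was at 0.07 (SE 0.69), and Mdm2, which degrades p53, at 0.21 (SE 0.24).

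Cell cycle genes were set as 1 list, with 8 of 33 tested genes above 0 and a median log2 fold change of -0.21. The split by phase given next was not part of the lists as set. All 16 G2/M genes on the list lay below 0, with a median of -0.51 beside 0.01 over all tested genes, while the 17 G1/S genes had 9 below 0 and a median of -0.00. No gene of either kind was called by edgeR, and 12 G2/M genes had an unadjusted p under 0.05, beside 3.64% of all tested genes in that direction. Plk1, a kinase of mitotic entry, was at -0.76 (SE 0.22), Aurka, a spindle kinase, at -0.55 (SE 0.19), and Top2a, which untangles DNA, at -0.54 (SE 0.23). The summed level of the 16 genes ran from 2572 to 4958 CPM in Helq-null and from 3495 to 6546 CPM in WT pools, which overlap. G2/M genes are co-regulated, so they do not count as separate evidence.

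Within interstitial-like cells alone the G2/M genes kept the sign in 15 of 16 members, with a median of -0.38 and 4 at an unadjusted p under 0.05, and the G1/S genes had a median of 0.17. The summed G2/M level ran from 3142 to 6544 CPM in Helq-null and 3842 to 7502 CPM in WT pools. The whole list of 33 genes had 16 above 0 there and a median of -0.02. The part of cell class shares in the pooled difference was not tested beyond this.

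Peritubular myoid markers, genes of the contractile cells around the cords, were lower in value in Helq-null pools without passing the test. All 5 lay below 0 with a median of -1.27, and 0 were called. An unadjusted p under 0.05 was found for 4 of them, beside 3.64% of all tested genes in that direction. Acta2, smooth muscle actin, was at -0.58 (SE 0.22), and Actg2, an enteric actin, at -3.54 (SE 1.27, edgeR FDR 0.612). Their summed level was 308, 313, 233, 431, 172 and 240 CPM in Helq-null and 328, 334, 342, 762, 518 and 518 CPM in WT pools. Only the E14.5 replicate 2 pool of the Helq-null side lies above any WT pool, and the highest WT pool is the one that stands apart. In interstitial-like cells alone the sums ran from 346 to 554 CPM and from 427 to 828.4 CPM.

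Lists for signals between the cells of the gonad lay close to all genes. The hedgehog pathway, through which Sertoli cells instruct Leydig cells, had 4 of 9 genes above 0 and a median of -0.04. Ptch1, its receptor and target, was at -0.04 (SE 0.23), and Dhh, its ligand from Sertoli cells, at -0.77 (SE 0.74). The retinoic acid pathway had 9 of 12 above 0 and a median of 0.17, with Cyp26b1, which degrades retinoic acid, at 0.85 (SE 0.62). Testis cord and niche factors had 9 of 18 above 0 and a median of -0.01, and among them Kitl, the ligand of KIT on germ cells, was at -0.38 (SE 0.33) and Gdnf at -0.27 (SE 0.54). None of these genes was called by edgeR.

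**Figure D5:**
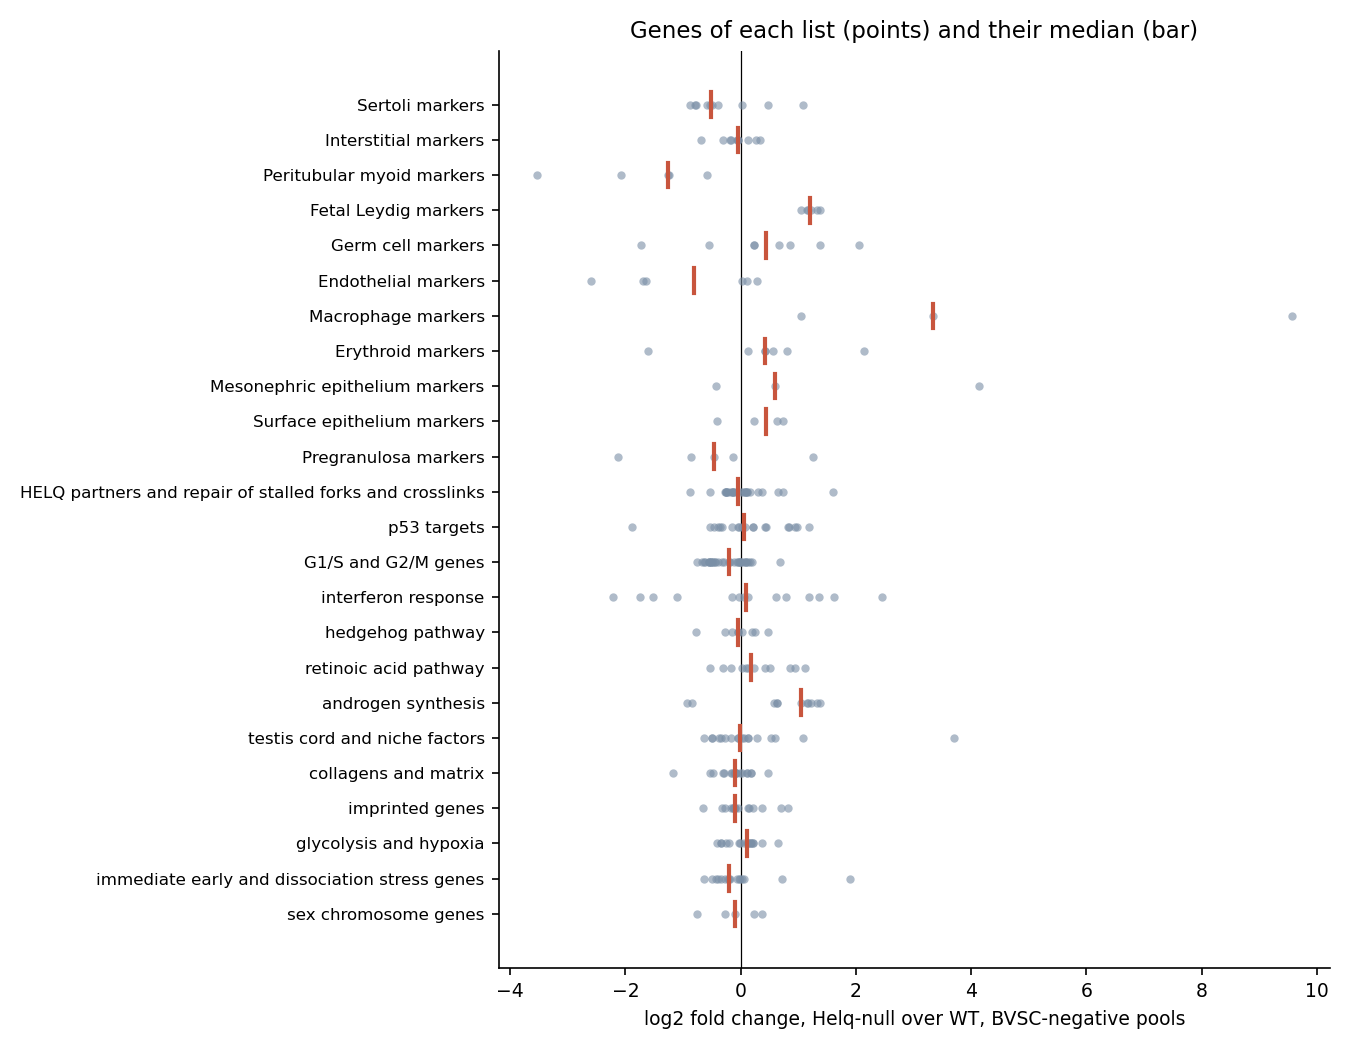
Log2 fold change of Helq-null over WT in BVSC-negative pools for the tested genes of each list (points) and the median of the list (bar). Medians lie near 0 for repair genes (-0.05), p53 targets (0.05) and the hedgehog pathway (-0.04), at 1.20 for fetal Leydig markers and at -1.27 for peritubular myoid markers.

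Further lists gave medians of -0.09 for collagens and matrix (6 of 20 above 0), -0.10 for imprinted genes (6 of 16), 0.11 for glycolysis and hypoxia (11 of 18), 0.09 for interferon response (8 of 14) and -0.20 for immediate early and dissociation stress genes (4 of 16). Sertoli markers had a median of -0.52 (3 of 10 above 0), interstitial markers -0.05 (3 of 10) and germ cell markers 0.45 (6 of 8). No gene of these lists was called by edgeR. Lum, a matrix proteoglycan gene, had the lowest unadjusted p of the collagen and matrix genes, at -1.18 (SE 0.34, edgeR FDR 0.495). Endothelial markers had a median of -0.80 (3 of 6 above 0), erythroid markers 0.42 (6 of 7), mesonephric epithelium markers 0.59 (2 of 3 tested), surface epithelium markers 0.43 (3 of 4), pregranulosa markers -0.46 (1 of 5) and sex chromosome genes -0.11 (2 of 5).

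Macrophage markers were not called between the genotypes and were highest in 1 Helq-null pool. Of 6 such genes 3 were tested, since C1qa, C1qb and Ptprc were too low, and their median was 3.33. The summed level of the list was 2.90, 29.0, 15.45, 14.1, 4.87 and 158 CPM in Helq-null pools and ran from 1.56 to 12.9 CPM in WT pools, so 4 Helq-null pools lie above every WT pool. Among Sertoli-like cells 3 of 4 Helq-null pools held 29.9 to 37.7 CPM and WT pools at most 5.60 CPM, and C1qa, a defining marker, was at 0 there in Helq-null cells. The highest pool is Helq-null E15.5 replicate 2, the pool that also holds the highest Cyp11b1. What part these cells have in the results was not tested. S100a8, a gene of neutrophils and monocytes looked up for this reason, had 1731 UMIs in Helq-null and 2 in WT cells, 1077 of them in 1 cell, and 53 of 161 Helq-null interstitial-like cells had a UMI beside 1 of 198 WT cells. The part of this pool in the pooled calls is given by leaving it out, where Gm10036 and Tescl passed and Cyp11b1 did not.

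The genes with the next smallest p did not pass the threshold. BC023719, annotated as an antisense transcript (chr17:36111426-36117121, mm10), had a log2 fold change of 7.36 (SE 1.23, edgeR FDR 0.0707), with 905 UMIs in 71 of 256 Helq-null cells against 5 UMIs in 5 of 282 WT cells. Its Helq-null pools held 11.003, 16.7, 11.7, 20.9, 0 and 38.2 CPM, and no WT pool exceeded 0.174 CPM. Zfp990, a zinc finger gene (chr4:145510759-145539188, mm10), was at 4.94 (SE 0.88, edgeR FDR 0.0834), with 736 UMIs in Helq-null and 20 in WT cells. Of the 736 UMIs of Zfp990, 386 lay in the 16 Helq-null germ cell-like cells, at 75.3 CPM beside 6.42 CPM in interstitial-like cells and 72.7 CPM in Helq-null cells of the germ cell gate. Both were picked after their values were seen, as the genes with the smallest p below the called ones together with Gm10093, Glo1 and Dnm1.

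Germ cells of the BVSC gate from the same pools gave the genotype comparison a second cell type that shares the animals. There 67 of 19610 genes were called (0.342%), 30 of them higher (0.153%) and 37 lower (0.189%) in Helq-null cells, and among them Gm10036 (2.39, SE 0.25, edgeR FDR 1.14e-04), Glo1 (-0.91, SE 0.17, edgeR FDR 0.0269) and Zfp990 (4.58, SE 0.20, edgeR FDR 3.03e-09). Tescl was at 1.78 (SE 0.56, edgeR FDR 0.244). Tested directly, the genotype difference itself was not the same in both gates for 2 of 17059 genes (0.0117%). They were Zfp362 (-3.44, SE 0.46, edgeR FDR 0.0157) and Slc9a3r2 (2.57, SE 0.36, edgeR FDR 0.0157). The value is the signed log2 fold change in BVSC-negative cells minus that in germ cells, so its sign does not tell which gate differs more. The term was 3.82 (SE 0.96, edgeR FDR 0.862) for Tescl.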

How the data were processed

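The deposited table holds UMI counts per gene and cell, which the authors made, per their methods, with UMI-tools, STAR and featureCounts on mm10. Names of cells gave the time-point, genotype, gate, part and replicate, since the sample labels name libraries. Cells with more than 2000 genes and 10000 to 1000000 UMIs were kept and summed to 12 pools of 5258028 to 14846785 UMIs. Members, marker and gene lists were chosen with earlier results of these data known. Genes were filtered with filterByExpr and tested with edgeR 4.0.16 (R 4.3.3) by its quasi-likelihood test, with TMM factors, time-point as covariate and Benjamini-Hochberg adjustment. DESeq2 1.42.0 and limma 3.58.1 served as alternatives. Shares and Helq were tested by exact permutation within time-points.

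Cells of both gates were clustered with scanpy 1.11.5 (1000 variable genes, 30 components, 20 neighbours, Leiden resolution 0.3), leaving out 72 marker, 33 cell-cycle and 3 called genes. A class needed 5 cells in a pool. No doublet caller was run, since cells were picked singly. CPM by class is on the raw total. The class names are rebuilt here and may differ from those of the study.

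The genes named are Helq and, past an FDR of 0.05 and a mean log2 CPM of 4, the 12 largest rises and 12 largest falls (3 and 3 within a class) without overlap at any time-point, list members that passed and called genes within 10 Mb of Helq. Genes outside the rule are said to be so. On simulated pools, 7 of 16047 unchanged genes were called. Some items are not reported here.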

Additional observations from a re-analysis of the deposited data

Results flagged for a closer look

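Of 22 groups of 6 pools, 4 held a pool far from the other 5, where chance gives about 1 in 20 groups. Among WT pools, Gm10036 was at 150 CPM in E13.5 replicate 1 and at most 85.3 CPM in the others. Tescl was at 55.4 CPM in Helq-null E14.5 replicate 2, above 21.7 CPM in the next pool. In WT, Tescl was at 2.83 CPM in E14.5 replicate 1 and at most 0.613 CPM elsewhere. Cyp11b1 was at 0.0876 CPM, 1 UMI, in WT E15.5 replicate 2 and at 0 in the other WT pools.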

How the results depend on the processing

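The count of genes called in all BVSC-negative cells was 3. It became 93 with DESeq2, 209 with every gene of at least 1 count, 9 with limma-trend, 8 with a replicate block, 6 with somatic clusters only, and 1 with at least 10 counts in every pool, with the library prefix as covariate or with proximal and central parts only. It was also 1 with the fetal Leydig-like share as covariate and with libraries of 1 prefix at E14.5 and E15.5, both chosen after seeing the data. Leaving out 1 pool gave 2 to 15 calls. Gm10036 was called in all of these, whereas Tescl and Cyp11b1 each lost their call in some, as given above for the prefix and for single pools. Cyp11b1 also lost its call with limma-trend, which weighted cells equally. With the Sertoli-like share as covariate, and with no cell filter, 2 genes were called each time, Gm10036 and Tescl.

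Calls within interstitial-like cells, 8, became 73 with DESeq2, 70 with genes of at least 1 count, and, chosen after seeing the data, 1 with the prefix and 5 within 1 prefix (3 to 15 without 1 pool). Within Sertoli-like cells, 1 became 42 with DESeq2, 16 with genes of at least 1 count, 12 with the replicate block and 0 with 10 cells per pool (0 to 9 without 1 pool). The test over time-points, 0, became 2 with DESeq2 and 86 with genes of at least 1 count (0 to 97 without 1 pool). In germ cells 67 became 484 with DESeq2 and 39 with the replicate block (45 to 189 without 1 pool). The cause of these changes was not tested.

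The log2 fold change of Helq, -0.13, was 0.036 with the prefix and 0.27 with the fetal Leydig-like share as covariate, 0.11 without Helq-null E15.5 replicate 2 and 0.03 without WT E15.5 replicate 2 (-0.25 to 0.11 without 1 pool). The fetal Leydig-like difference, 12.1 points, was 9.67 at resolution 0.6, 10.3 with the marker and called genes kept, and 18.5 within 1 prefix, where no p below 0.11 is possible (10.2 to 14.1 without 1 pool). The interstitial-like difference ran from -15.4 to 0.909 points without 1 pool.

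Replicate numbers did not pair the pools, since the correlation of same-numbered deviations was 0.13, 0.07 and 0.04 at the 3 time-points. With 6 pools a side and a common biological coefficient of variation of 0.756, small changes could not be detected.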
